A study of Arabidopsis thaliana with 34 samples.

Results

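The Col/Ler hybrids are the F1 seedlings of crosses between the Arabidopsis thaliana inbred accessions Col and Ler, made in both directions and named ColxLer and LerxCol. They were chosen by label: the libraries lettered A and B of ColxLer, LerxCol, Col and Ler, which are 8 of the 34 in the series. Each library is mRNA-seq of a pool of 5 to 15 seedlings without roots, grown on agar plates to 15 days, and each genotype has 2 such pools. The labels do not say which of the names joined by x is the mother, and they list no treatment or transgene. The series also holds the accession C24 and its hybrids with Col and Ler, which enter here only where the fit or a comparison needs them.

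F1 hybrids of Arabidopsis accessions often grow larger than their parents, which is called heterosis or hybrid vigour, and its size depends on the cross. With no interaction between the parental copies, a transcript in an F1 is expected near the arithmetic mean of the parents, the mid-parent, because each parental allele is present in a single copy. Departures from that mean, in either direction, are called non-additive expression, and genes of defence, stress, hormones and the circadian clock are those most often discussed in hybrids.

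The 8 libraries held 76445877 to 86704381 counts each. Of 29777 genes tested, those called at a Benjamini-Hochberg adjusted p below 0.05 are called below. Levels are CPM, counts scaled to a common library size, which compare a gene between libraries but not genes of different length with each other. The leaf mesophyll marker list summed to 29300 to 40600 CPM in the hybrids, against 35400 and 37400 CPM in Col and 35900 and 36800 CPM in Ler. The root marker list summed to 52.2 to 58.6 CPM in the hybrids, 56.6 and 59.4 CPM in Col and 59.9 and 66.5 CPM in Ler, and the bulk of it was SCR, which shoots express too. The letters moved together in every genotype: 8886 genes differed between letter B and letter A over the 9 genotypes, so all values below are from a fit with the letter as a block unless another is named. What the letters stand for is not in the labels.

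The hybrids stood apart from the mid-parent at 800 genes, 2.69% of those tested. More genes were lower than higher: 567 fell (1.9%) and 233 rose (0.782%), while the median of all genes was -0.01 on the log2 scale. Falls were also larger, with a median of -0.51 and 83 of at least 2-fold, against a median of 0.38 and 18 of at least 2-fold among rises. The measure is not symmetrical for hybrids at or between their parents' levels. A hybrid at its high parent's level lies at most 2-fold above the arithmetic mean, while one at its low parent's level can lie further below it. How much this adds to the excess of falls was not tested. Within letters the genes called lower had a median of -0.55 in A and -0.45 in B, and the genes called higher 0.45 in A and 0.30 in B. Against the parents' log-scale mean, which lies below the arithmetic one wherever the parents differ, 717 genes rose and 541 fell.

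The falls lay mostly where Ler was the high parent. The parents themselves differed at 386 of the 567 genes that fell, and Ler was the higher parent at 349 of those. By means alone, 425 of the 567 lay below both parents, 103 of them also by test against each parent. The other 142 lay between the parents' means, 130 of them closer to Col. Among the 233 that rose, the parents differed at 95 and Col was higher at 82. By means alone, 220 of the 233 lay above both parents, 52 of them also by test. Over all genes tested, Col against Ler gave 3767 higher in Col (12.7%) and 3253 higher in Ler (10.9%), and 2170 and 1756 without Ler A.

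The number of calls moved with single libraries. It was 324 without Ler A, 1718 without Col B, 347 without ColxLer A, 283 without ColxLer B and 311 without LerxCol A. Without the letter in the fit, 93 genes were called, 11 higher and 82 lower. With 2 pools a genotype, calls near the threshold are not firm: RBP45A, just inside it at an adjusted p of 0.0499, and RAB1C, just outside at 0.05, had changes of -0.18 and -0.23.

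**Figure D1:**
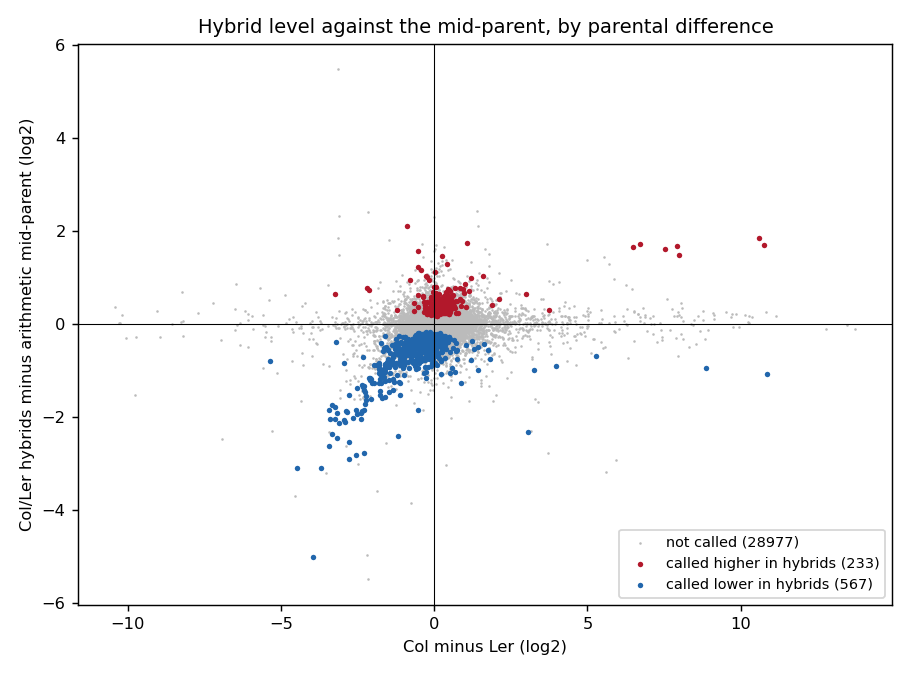
Each point is 1 of 29777 genes, with the log2 difference of Col minus Ler on the horizontal axis and the log2 difference of the hybrids minus the arithmetic mid-parent on the vertical axis; the 233 genes called higher in hybrids are red and the 567 called lower are blue. The blue points run down to the left, where Ler was the high parent, and a small group of 7 red points lies far to the right, where the gene was at or near 0 in Ler.

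That group of 7 red points is a single run of neighbouring loci near the centromere of chromosome 5. They are AT5G34790, AT5G34795, AT5G34800, AT5G34810, AT5G34820, AT5G34825 and AT5G34830, from 12966080 to 12982497 in TAIR10.1, and RefSeq lists all but AT5G34830 as pseudogenes. They are all of the genes that rose among those with a Col minus Ler difference above 5 on the log2 scale. AT5G34800 had 4.45 and 3.77 CPM in ColxLer and 4.41 and 4.54 CPM in LerxCol, against 2.48 and 2.30 CPM in Col and 0 in both Ler libraries. The 4 hybrid libraries were all above both Col libraries, although 1 of their parents had no counts. The change was 1.84 ± 0.16 (SE) against the mid-parent (adjusted p = 0.000297) and 0.84 against Col alone (adjusted p = 0.00835). AT5G34790 behaved alike, with 4.83 and 3.84 CPM in ColxLer and 5.28 and 3.90 CPM in LerxCol, against 2.73 and 2.7 CPM in Col and 0 in Ler. AT5G34795 had 2.56 to 3.19 CPM in the 4 hybrid libraries, against 1.71 and 2.03 CPM in Col and at most 0.013 CPM in Ler, where 1 count was found. These 3 kept their calls without any 1 library and without the letter block (adjusted p up to 0.00853).

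The other 4 loci of the run were low, at 0.151 to 0.634 CPM in the hybrids, 0.116 to 0.472 CPM in Col and 0 in Ler, with mid-parent changes of 1.49 to 1.71; none of them was called against Col. The run has a counterpart in the crosses with C24, another parent at or near 0 there: AT5G34800 had, as CPM with no further scaling, 5.98 and 5.43 in C24xCol and 6.12 and 4.24 in ColxC24, against 2.50 and 2.25 in Col and at most 0.0274 in C24. Its neighbour on the left, the protein-coding AT5G34780, showed no such pattern, with 0.127 to 0.397 in the Col/Ler hybrids, 0.492 and 0.343 in Col and 0.296 and 0.131 in Ler. How reads of near-identical copies were counted is not stated, so the origin of reads in this run is uncertain.

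Medians over other genes expressed in 1 parent alone lay near the mid-parent, although single genes could depart from it: AT4G08115, at 2.44 and 3.46 CPM in Col and 0 in Ler, fell by 1.07 (adjusted p = 0.0118). At 31 genes of at least 5 CPM in Col and at most 2% of that in Ler, the median level was 53.3% and 55.6% of Col in ColxLer and 46.4% and 54.1% in LerxCol. At 5 such genes of Ler, the hybrid libraries were at 47.9% to 53% of Ler. TAIR10 is the genome listed for the counts, and a transcript missing from it could not be counted, so the 2 numbers of genes are not compared. AOP3, which makes hydroxyalkyl glucosinolates and is active in Ler, had 86.6 and 43.7 CPM in ColxLer and 78.7 and 52.1 CPM in LerxCol, against 1.53 and 1.1 CPM in Col and 203 and 125 CPM in Ler; it was not called against the mid-parent (-0.35, adjusted p = 0.369).

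Among genes expressed in both parents, cytokinin response regulators were among the largest rises. Type-A response regulators are induced by cytokinin and damp its signal. This list was added after the values were seen, and 4 of its 10 members rose and none fell, beside 0.782% rising over all genes; its median was 0.28, against -0.01 for all genes. ARR7 had 38.3 and 67.8 CPM in ColxLer and 23.3 and 51.0 CPM in LerxCol, against 8.96 and 15.1 CPM in Col and 15.8 and 17 CPM in Ler. The lowest hybrid library was above the highest parent library. The change was 1.57 ± 0.27 (SE; adjusted p = 0.0185), with 1.31 in letter A and 1.89 in letter B. Without any one of Ler B, Col A, ColxLer A, ColxLer B or LerxCol A, the adjusted p was 0.057 to 0.0784.

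ARR6 had 23.9 and 40.6 CPM in ColxLer and 20 and 34.1 CPM in LerxCol, against 6.98 and 14.1 CPM in Col and 13.4 and 15.3 CPM in Ler. Its groups did not overlap either, and it rose by 1.22 ± 0.16 (adjusted p = 0.003) and kept its call whichever library was left out. ARR4 had 87.5 to 96.3 CPM in the 4 hybrid libraries, against 46.0 and 75.2 CPM in Col and 52.2 and 61.1 CPM in Ler, a rise of 0.67 (adjusted p = 0.0131). ARR15 rose by 0.64 (adjusted p = 0.0332), with 4.60 to 7.05 CPM in the hybrids and 2.77 to 4.69 CPM in the parents. The other 6 regulators, ARR3, ARR5, ARR8, ARR9, ARR16 and ARR17, had changes of -0.25 to 0.41 and did not pass. ARR6 overlaps another annotated gene, and strand use in counting is not given. Without the letter block none of the 4 was called (ARR6: adjusted p = 0.273), and the count of the list was 1 without ColxLer A or LerxCol A and 2 without Ler A, Ler B, Col A or ColxLer B.

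**Figure D2:**
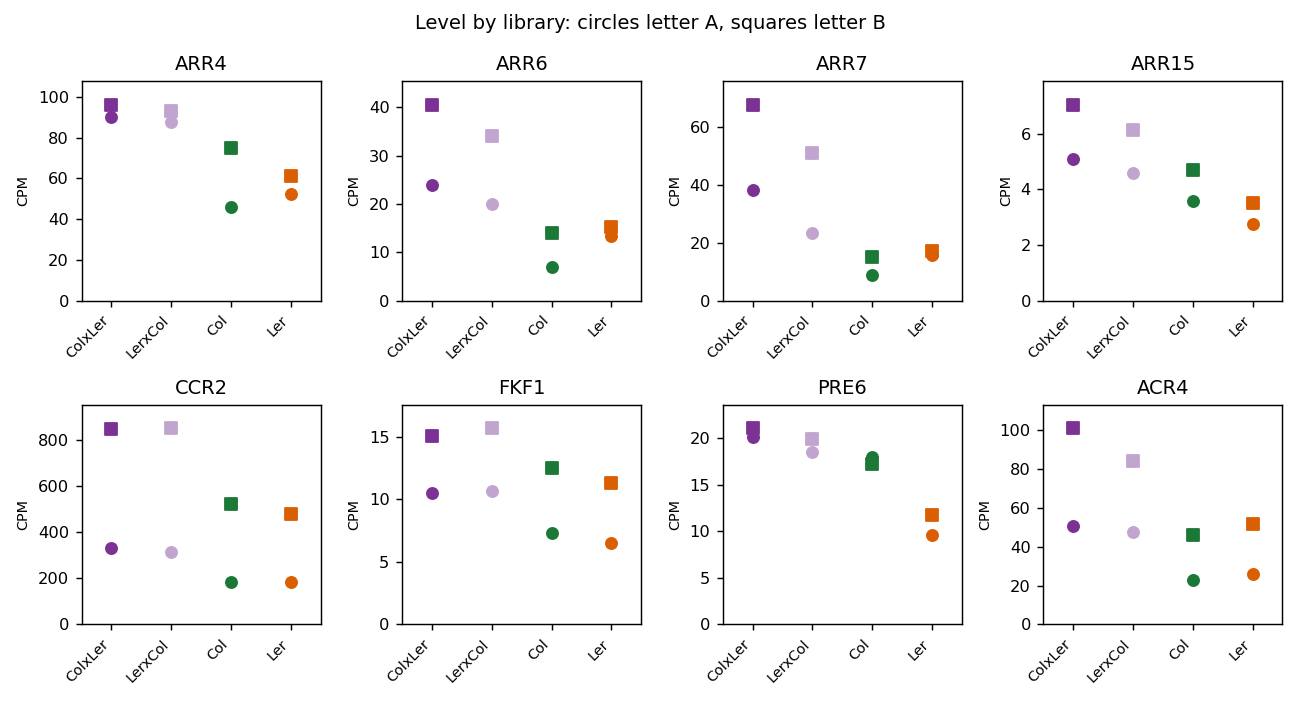
Level in CPM (vertical axes, from 0) of 8 genes called higher in the hybrids, by genotype on the horizontal axis, with a circle for letter A and a square for letter B. ARR4, ARR6, ARR7 and PRE6 have all 4 hybrid libraries above all 4 parent libraries; CCR2, FKF1 and ACR4 do so within each letter.

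Of the 21 clock and clock-output genes, 2 rose and 3 fell (beside 0.782% rising and 1.9% falling over all genes), with a median of 0.10. CCR2 (AT2G21660), an RNA-binding protein whose transcript cycles and peaks in the evening, had 332 and 846 CPM in ColxLer and 315 and 851 CPM in LerxCol, against 183 and 522 CPM in Col and 182 and 478 CPM in Ler. Letter B was the higher letter in every genotype, and within each letter both hybrids were above both parents. CCR2 rose by 0.79 ± 0.07 (adjusted p = 0.000129), with 0.83 in A and 0.76 in B, and was above Col and above Ler by test. FKF1, a blue-light receptor of the flowering clock, averaged 12.8 ± 3.21 CPM in ColxLer and 13.2 ± 3.55 CPM in LerxCol (SD, n = 2 each), against 7.32 and 12.5 CPM in Col and 6.53 and 11.3 CPM in Ler, a rise of 0.49 ± 0.08 (adjusted p = 0.00689). The morning-phased genes LHY, LNK1 and RVE1 fell, by 0.37, 0.36 and 0.75 (adjusted p = 0.0243, 0.0115 and 0.0186). RVE1 had 13.0 and 6.20 CPM in ColxLer and 9.26 and 5.50 CPM in LerxCol, against 26.5 and 10.5 CPM in Col and 13.1 and 7.85 CPM in Ler, so the high parent there was Col, while for LHY it was Ler. LHY's partner CCA1, at 188 to 280 CPM in the hybrids and 192 to 265 CPM in the parents, had a change of -0.04 (adjusted p = 0.835).

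All 5 clock calls need the letter: without it none was called, and CCR2 had an adjusted p of 0.758. CCR2 and FKF1 kept their calls without any 1 library. The count of falls was 2 without Ler A, 1 without Col A, ColxLer A or LerxCol A and 0 without ColxLer B, and that of rises was 5 without Col B. The other Ler libraries, lettered C to G, had 451 to 5140 CPM of CCR2, with no further scaling, against 189 and 482 in Ler A and B, so the level of this gene ranged more widely over letters than over the genotypes of 1 letter. The part of harvest time in these values was not tested.

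The 250 bases before the annotated start of the 2 clock genes that rose and of 2 of those that fell are shown because these genes moved in opposite directions and carry different clock-related motifs. Bases are from RefSeq, TAIR10.1, on the gene's own strand. Capitals mark the evening element (AAAATATCT, on either strand) in CCR2 at chr2:9266558-9266807 on the minus strand and in FKF1 at chr1:25508389-25508638 on the plus strand. They mark the G-box (CACGTG) in LHY at chr1:37872-38121 and in RVE1 at chr5:5692993-5693242, both on the minus strand.
CCR2: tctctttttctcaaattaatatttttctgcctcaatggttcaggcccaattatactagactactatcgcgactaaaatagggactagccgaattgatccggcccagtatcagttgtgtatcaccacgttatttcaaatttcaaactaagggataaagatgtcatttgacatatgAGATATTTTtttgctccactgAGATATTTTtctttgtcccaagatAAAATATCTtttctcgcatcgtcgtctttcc
FKF1: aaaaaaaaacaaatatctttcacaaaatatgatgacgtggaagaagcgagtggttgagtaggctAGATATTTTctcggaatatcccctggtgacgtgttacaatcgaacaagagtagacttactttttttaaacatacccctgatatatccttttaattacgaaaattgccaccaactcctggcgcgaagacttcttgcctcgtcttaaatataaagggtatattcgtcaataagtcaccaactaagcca
LHY: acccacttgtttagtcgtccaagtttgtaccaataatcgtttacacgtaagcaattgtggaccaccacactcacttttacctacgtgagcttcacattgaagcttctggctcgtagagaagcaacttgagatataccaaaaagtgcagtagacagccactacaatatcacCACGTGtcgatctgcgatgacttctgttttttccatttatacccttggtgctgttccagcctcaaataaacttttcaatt
RVE1: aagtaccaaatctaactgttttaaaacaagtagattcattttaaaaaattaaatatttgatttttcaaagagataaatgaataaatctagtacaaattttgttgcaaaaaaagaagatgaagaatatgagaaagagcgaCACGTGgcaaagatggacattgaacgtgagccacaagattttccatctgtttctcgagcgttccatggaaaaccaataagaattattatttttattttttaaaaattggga
CCR2 holds 3 evening elements in this window and FKF1 holds 1, while LHY and RVE1 hold 1 G-box each. Of 29325 such windows over the genes tested, 2.33% hold an evening element and 6.24% a G-box. Among the 21 clock genes these shares were 23.8% and 33.3%. LNK1, the fifth clock gene called, holds neither in this window. A match is a run of letters and not evidence of binding.

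A few growth-related genes rose by small amounts. In the list of brassinosteroid synthesis, PIF and related bHLH genes, 5 of 29 rose and none fell, beside 0.782% and 1.9% over all genes. Positive changes were found at 24 of the 29, against 13984 of all 29777. PRE6, a small bHLH protein that promotes elongation, had 20.2 and 21.1 CPM in ColxLer and 18.5 and 19.9 CPM in LerxCol, against 18 and 17.3 CPM in Col and 9.59 and 11.8 CPM in Ler. Every hybrid library was above every parent library, Col only narrowly, and the change was 0.49 ± 0.08 (adjusted p = 0.00489). BEE2 rose by 0.36 (adjusted p = 0.00477) and lay nearest Col as well, with 52.8 to 61.5 CPM in the hybrids, 48.7 and 54.4 CPM in Col and 35.6 and 39.2 CPM in Ler. The brassinosteroid enzymes CPD and DET2 rose by 0.35 and 0.24 (adjusted p = 0.0371 and 0.0189), and HFR1 by 0.37 (adjusted p = 0.0313). The growth regulators PIF4 and PIF5 did not pass, at 0.18 and -0.11. PRE6 and BEE2 were also called without the letter block. From the 8 libraries alone 1 member was called and BEE2 missed (adjusted p = 0.0714), and the count was 2 without Ler A, ColxLer A or LerxCol A and 3 without ColxLer B. The list's median was 0.26 in letter A and 0.03 in letter B.

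Among 44 auxin genes, 2 rose and 1 fell, beside 0.782% and 1.9% over all genes, with a median of 0.16. HAT4, a homeobox gene of shade growth, rose by 0.57 (adjusted p = 0.0189) and the auxin repressor IAA2 by 0.52 (adjusted p = 0.0467), whereas GH3.3, which conjugates auxin to amino acids, fell by 0.62 (adjusted p = 0.0343) to 7.62 to 9.47 CPM in the hybrids, against 7.93 and 9.12 CPM in Col and 16.7 and 18.4 CPM in Ler. GH3.3 in the hybrids was thus at the level of Col. The ethylene receptor ERS1 and the F-box protein EBF2, both negative regulators of ethylene signalling, rose by 0.26 and 0.34 (adjusted p = 0.0171 and 0.0173). GID1A, a gibberellin receptor, rose by 0.28 (adjusted p = 0.00654), and the expansin EXPA1, which loosens cell walls, by 0.61 (adjusted p = 0.0431). Among HAT4, GH3.3, ERS1, EBF2, GID1A and EXPA1, GID1A alone kept its call in every fit without 1 library. Without the letter block all of them missed, GID1A at 0.0734 and the others at 0.267 to 0.793, and GID1A missed from the 8 libraries alone too (0.0871). HAT4 missed at 0.0558 to 0.128 without any one of Ler A, Col A, ColxLer A, ColxLer B or LerxCol A, GH3.3 at 0.0762 to 0.19 without any 1 library but Col B, and EXPA1 at 0.0636 to 0.209 without any 1 library but Ler B and LerxCol A. ERS1 missed at 0.0539 to 0.093 without any 1 library but Col B and LerxCol B, and EBF2 at 0.094 to 0.107 without any one of Ler A, ColxLer B or LerxCol A.

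The cold regulator CBF1 rose, and its neighbours CBF2 and CBF3 did not pass. CBF1 had 3.46 and 2.98 CPM in ColxLer and 1.81 and 1.35 CPM in LerxCol, against 1.40 and 0.545 CPM in Col and 0.379 and 0.506 CPM in Ler. LerxCol B was just below Col A, so the groups overlapped, and the rise of 1.73 ± 0.36 had an adjusted p of 0.0353. It missed at 0.0657 to 0.126 without any 1 library but Ler B. CBF2 had a change of 0.77 (adjusted p = 0.246) and CBF3 of 0.88 (adjusted p = 0.146). Of 26 cold, drought and abscisic acid genes, 1 rose and 1 fell (3 and 1 with DESeq2), beside 0.782% and 1.9% over all genes, and 19 had positive changes, with a median of 0.23. The median was 0.37 in letter A and -0.01 in letter B. None of the COR, KIN, RD or ERD genes passed with edgeR, with COR15A at 303 to 502 CPM in the hybrids and 255 to 412 CPM in the parents (0.17, adjusted p = 0.273). The other member called was HAB1, a phosphatase that restrains abscisic acid signalling, which fell by 0.53 (adjusted p = 0.0198); it missed at 0.0508 to 0.108 without any one of Ler A, Ler B, ColxLer B, LerxCol A or LerxCol B.

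Outside the lists, AT1G64380, which RefSeq names an integrase-type DNA-binding protein, rose by 1.03 ± 0.13 (adjusted p = 0.00142) and passed with and without the letter and in each fit without 1 library. It had 5.43 and 5.09 CPM in ColxLer and 2.44 and 2.88 CPM in LerxCol, against 1.72 and 1.6 CPM in Col and 1.79 and 2.21 CPM in Ler. ACR4 (AT1G69040), an ACT-domain repeat protein, had 50.8 and 101 CPM in ColxLer and 47.4 and 83.9 CPM in LerxCol, against 23.0 and 46.2 CPM in Col and 25.9 and 51.9 CPM in Ler. As with CCR2, letter B was the higher letter throughout, and within letters ACR4 rose by 1.01 and 0.91 (0.95 over both, adjusted p = 0.000297; 0.56 without the letter). AT1G19060 rose by 1.00 (adjusted p = 0.0103) at a low level of 0.972 to 2.27 CPM in the hybrids and 0.489 to 0.944 CPM in the parents, and missed at 0.0575 to 0.0644 without Ler B or ColxLer B. It starts at 6582066 on chromosome 1, near ARR7, which ends at 6579314 on the same strand. The hybrid libraries ranked alike for both genes. Whether the signal of AT1G19060 is separate from that of ARR7 was not tested.

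The largest falls were of genes high in Ler A and B that the hybrids held at the level of Col. BGLU28, a glucosinolate-degrading beta-glucosidase, had 4.40 and 3.17 CPM in ColxLer and 5.99 and 5.57 CPM in LerxCol, against 7.06 and 4.53 CPM in Col and 69.1 and 76.9 CPM in Ler. All 4 hybrid libraries fell within or below the range of Col and far below Ler. The change was -3.09 ± 0.35 against the mid-parent (adjusted p = 0.0032) and -0.30 against Col (adjusted p = 0.754). CYP81D8, a cytochrome P450 of the response to foreign chemicals, had 2.83 to 4.29 CPM in the hybrids, against 2.97 and 4.29 CPM in Col and 40.6 and 25.1 CPM in Ler (-2.45, adjusted p = 0.00624). GSTU24, a glutathione transferase, had 2.81 to 3.66 CPM in the hybrids, 3.20 and 2.87 CPM in Col and 31.8 and 16.5 CPM in Ler (-2.07, adjusted p = 0.000377). NIT2, a nitrilase, was lower still, with 0.394 and 2.45 CPM in ColxLer and 3.87 and 4.80 CPM in LerxCol, against 12.8 and 3.80 CPM in Col and 161 and 109 CPM in Ler. Its change of -5.00 ± 0.94 (adjusted p = 0.0304) missed at 0.0744 to 0.152 without any one of Ler A, ColxLer A, ColxLer B, LerxCol A or LerxCol B. UGT73B4, AT4G08555, AT4G12735 and AT2G18193 followed the pattern of BGLU28, with changes of -2.37, -2.54, -2.13 and -2.10 and no difference called between the hybrids and Col.

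For some of these genes the Ler level of letters A and B is not that of Ler in the rest of the series. Ler was also sequenced in letters C to G, where no Col or Col/Ler hybrid library exists. As CPM with no further scaling, BGLU28 had 71.8 to 77.5 in Ler A and B, against 2.38 to 6.89 in the 5 other Ler libraries, near Col (7.10 and 4.42). CYP81D8 had 25.3 to 42.2 in Ler A and B against 6.39 to 12.5 in the others, still above Col (2.99 and 4.19). NIT2, at 167 and 110 against 40.5 to 155, and SEP3, at 15.4 and 11.5 against 5.80 to 29.1, stayed above Col (12.9 and 3.71 for NIT2, 1.67 and 1.11 for SEP3) in every Ler library. GSTU24, at 4.83 to 40.4 in Ler C to G, stayed above Col (3.22 and 2.80) as well. The high Ler level of BGLU28 was thus seen in letters A and B alone. The part of the growth or harvest of those pools was not tested.

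**Figure D3:**
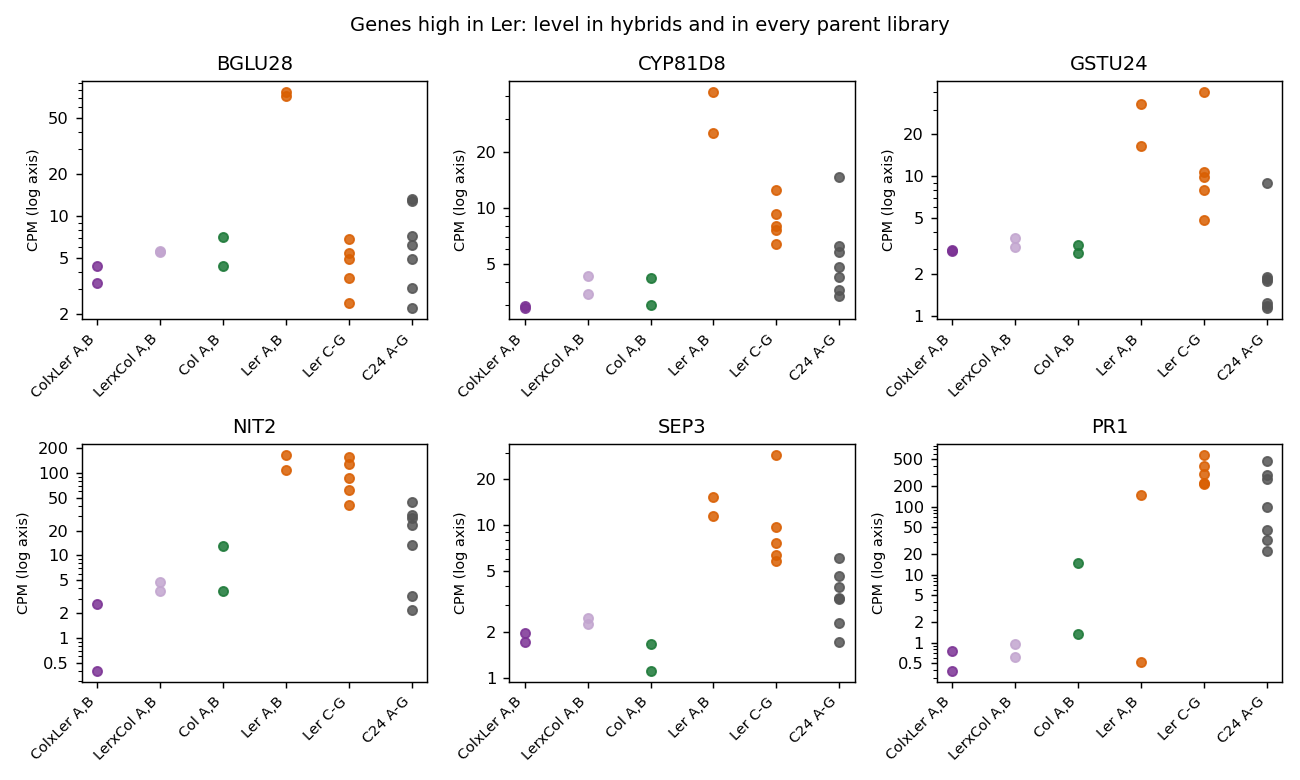
Level of 6 genes on a log axis, as CPM of all counts with no further scaling, in ColxLer, LerxCol, Col and Ler of letters A and B, in Ler of letters C to G and in all C24 libraries; each point is a library. BGLU28 is high in Ler A and B alone, SEP3 and NIT2 are above Col in all Ler libraries, and PR1 ranges from 0.523 to 150 within Ler A and B.

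Tau-class glutathione transferases, which detoxify foreign and oxidised compounds, fell in part, and most of those that fell were higher in Ler. This list too was added after the values were seen. Of 28 members tested, 9 fell and none rose, beside 1.9% falling over all genes, with a median of -0.22. GSTU8 had 4.03 and 3.42 CPM in ColxLer and 3.08 and 3.09 CPM in LerxCol, against 5.45 and 4.75 CPM in Col and 16.5 and 10.0 CPM in Ler. It was below both parents in every library and by test (-1.42, adjusted p = 0.000169). GSTU16 went against the pattern of Ler-high genes: it fell by 0.36 (adjusted p = 0.0181), and Col was its high parent. The count was 5 without ColxLer B or LerxCol A, and without the letter block 3 did.

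Transcripts of glucosinolate synthesis genes fell as well, in large part below both parents. Glucosinolates are sulphur-rich defence compounds of the cabbage family; the aliphatic ones are built from methionine by chain elongation, formation of the core structure and changes to the side chain. Of 38 genes tested from the list, 17 fell and none rose, beside 1.9% falling over all genes, with a median of -0.58, and 11 of the 17 were below both parents by test (0.346% of all genes were). Within letters the median was -0.66 in A and -0.38 in B. When the list was divided after the values were seen, 14 of 21 genes of the aliphatic branch fell, with a median of -0.77, and none of 9 of the indolic branch did with edgeR, with a median of -0.23; at an unadjusted p below 0.05 there were 3 lower and 1 higher, and with DESeq2 1 lower and 0 higher. The other 3 that fell were SUR1 and UGT74B1, which act in both branches, and the specifier protein NSP5.

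Among these were genes of chain elongation and transport, the early steps of the pathway. IPMI1, an isomerase subunit of chain elongation, had 29.4 and 12.2 CPM in ColxLer and 19.8 and 11.6 CPM in LerxCol, against 49.7 and 23.9 CPM in Col and 60.1 and 29.3 CPM in Ler. Letter A was the higher letter in every genotype, and within each letter both hybrids were below both parents. IPMI1 fell by 1.17 ± 0.08 against the mid-parent (adjusted p = 3.12e-05), with -1.16 in each letter, by 1.02 against Col and by 1.3 against Ler. BCAT4, which starts elongation, fell by 0.93, and the plastid transporter BAT5 by 0.78 (adjusted p = 0.000863 and 0.000194). The synthases MAM1 and MAM3 are high in different parents: MAM1 had 125 to 199 CPM in the hybrids, 343 and 344 CPM in Col and 104 and 98.4 CPM in Ler, while MAM3 had 26 to 39.6 CPM in the hybrids, 14.4 and 14.5 CPM in Col and 127 and 94.8 CPM in Ler. Both stood between the parents and nearer the lower one, with changes of -0.56 and -0.83.

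Transcripts for enzymes of the core structure fell as well. CYP79F1, the first of them, had 65.4 and 24.8 CPM in ColxLer and 51.1 and 37.3 CPM in LerxCol, against 190 and 91.4 CPM in Col and 108 and 48.9 CPM in Ler. It fell by 1.26 ± 0.17 (adjusted p = 0.00412), with -1.35 in A and -1.18 in B, below both parents. CYP79F2, CYP83A1 and UGT74C1 fell by 1.52, 0.73 and 0.59. The sulphotransferase SOT17, at 10.7 to 14.8 CPM in the hybrids, 27.2 and 17.1 CPM in Col and 27.4 and 16.8 CPM in Ler, fell by 0.85 (adjusted p = 0.00109) where the parents did not pass the test against each other (adjusted p = 0.975). SOT18, the side-chain oxygenases FMO GS-OX1 and FMO GS-OX3, and AOP2 fell by 0.77, 1.05, 0.79 and 0.98. NSP5, which diverts breakdown products to nitriles, fell by 1.24 (adjusted p = 0.000512), with 44.3 to 65.0 CPM in the hybrids, 85.7 and 72.5 CPM in Col and 194 and 155 CPM in Ler. None of the regulators MYB28, MYB29 and MYB76 passed, with changes of -0.23, -0.62 and -0.63 (adjusted p = 0.196, 0.0627 and 0.074), nor did the myrosinases TGG1 and TGG2, at 0.19 and -0.01.

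The glucosinolate calls held across libraries but not without the letter. Leaving out any 1 library left 13 to 18 members lower and at most 1 higher, and without the letter block 2 were lower, although the median was then -0.59. Against the log-scale mean of the parents, 14 fell and 3 rose.

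**Figure D4:**
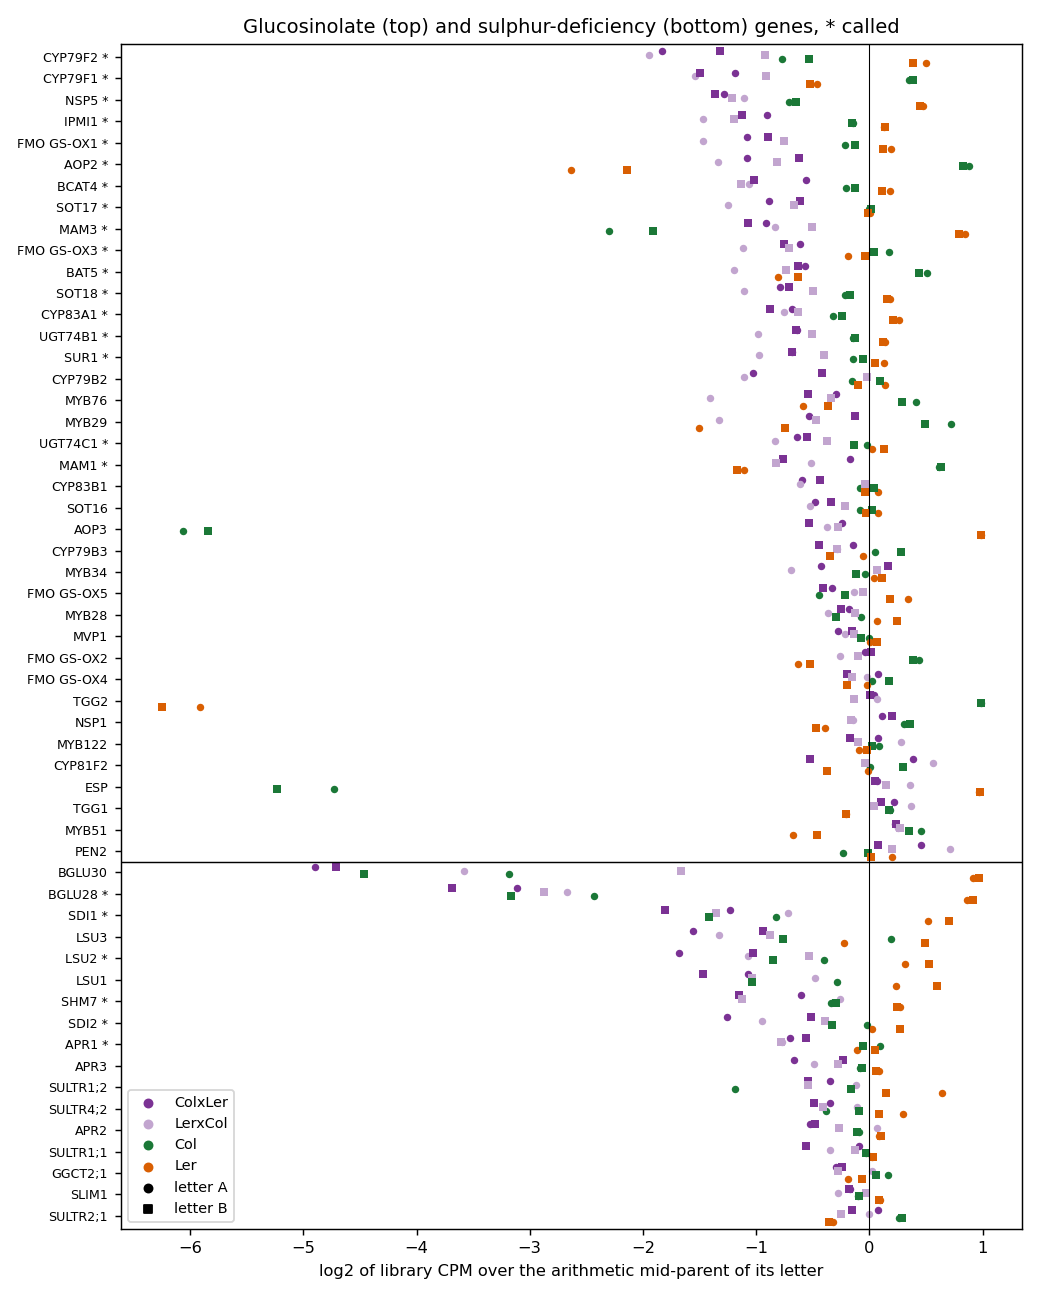
Each row is a gene of the glucosinolate list (above the line) or the sulphur-deficiency list (below), with an asterisk where called; the horizontal axis is the log2 ratio of a library's CPM to the arithmetic mid-parent of its own letter, and colours mark genotypes. In the upper rows the hybrid points of both letters lie left of 0 and mostly left of both parents, while in BGLU28 and SDI1 they lie beside Col.

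Of 17 genes induced by lack of sulphur, 6 fell, beside 1.9% over all genes, and all 17 had negative changes, with a median of -0.70. Those that fell were SDI1, SDI2, LSU2, BGLU28, SHM7 and APR1. SDI1, which restrains aliphatic glucosinolate synthesis, had 21.1 and 7.58 CPM in ColxLer and 30.1 and 10.4 CPM in LerxCol, against 28.1 and 9.93 CPM in Col and 71.2 and 43.1 CPM in Ler. The hybrids were at the level of Col within each letter, and the change was -1.27 ± 0.18 (adjusted p = 0.00499). APR1, which reduces activated sulphate, was the single member below both parents, with 92.2 and 37.1 CPM in ColxLer and 87.8 and 31.7 CPM in LerxCol, against 160 and 52.5 CPM in Col and 139 and 56.7 CPM in Ler (-0.70, adjusted p = 0.0317). The sulphate transporter SULTR1;2 did not pass (-0.40, adjusted p = 0.5). The number of members that fell was 2 without Ler A, Ler B, ColxLer A or LerxCol A, 3 without ColxLer B, 8 without Col B and 1 without the letter block.

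Heat shock genes fell in part, most of them with Ler as the higher parent. Of 24 tested, 5 fell and none rose, beside 1.9% falling over all genes, with a median of -0.20. The chaperone HSP70 had 13.0 and 14.5 CPM in ColxLer and 13.3 and 11.3 CPM in LerxCol, against 15.9 and 15.0 CPM in Col and 34.8 and 28.7 CPM in Ler. All 4 hybrid libraries were below all 4 parent libraries, as at 1.22% of all genes, though only narrowly below Col. HSP70 fell by 0.86 ± 0.10 against the mid-parent (adjusted p = 0.000918) but was not called against Col (-0.25, adjusted p = 0.296). HSP90.1 and the small heat shock genes HSP17.6A and HSP17.6II fell by 0.45, 1.56 and 1.15. HSP101, a disaggregase, was below both parents by test, with 4.94 to 7.36 CPM in the hybrids and 8.20 to 9.87 CPM in the parents (-0.51, adjusted p = 0.00717). The transcription factor HSFA2 did not pass (-0.37, adjusted p = 0.143). Leaving out 1 library left 4 to 7 members lower, 2 were lower without the letter block and 1 from the 8 libraries alone.

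Of the 6 floral organ markers, SEP3 and AP3 fell by 1.78 and 1.07, where 1.9% of all genes fell. SEP3 had 1.72 to 2.49 CPM in the hybrids, against 1.66 and 1.14 CPM in Col and 14.8 and 11.4 CPM in Ler (adjusted p = 0.000126). The marker list summed to 11.4 to 12.4 CPM in the hybrids, 14.1 and 11.6 CPM in Col and 28.3 and 23.8 CPM in Ler, with no marker at 0 in any library, so the hybrids matched Col in this measure. In whole shoots, fewer cells of a type and less RNA per cell cannot be told apart. AP3 missed at 0.077 to 0.215 without any one of Ler A, Col A, ColxLer A, ColxLer B or LerxCol A. The floral repressors FLC, at 0.571 to 1.3 CPM in all 8 libraries, and MAF1, at 16.1 to 21.9 CPM in the hybrids, 27.4 and 29.3 CPM in Col and 5.55 and 6.47 CPM in Ler, stood near the mid-parent (0.08 and 0.09). Of 31 flowering-time genes 1 fell, beside 1.9% over all genes. It was the AP2-type repressor SNZ (-0.49, adjusted p = 0.00696).

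Other stress and nutrient lists gave few calls by number, where 1.9% of all genes fell and 0.782% rose. Phosphate starvation gave 2 falls of 22, the exporter PHO1 (-0.65, adjusted p = 0.017) and the acid phosphatase PAP17 (-0.76, adjusted p = 0.0158), with a list median of -0.32. PHO1 missed at 0.0715 to 0.107 without any one of Ler A, ColxLer B or LerxCol A, and PAP17 at 0.0565 to 0.0879 without any one of those or ColxLer A. The sugar exporters SWEET11 and SWEET13 fell by 0.33 and 0.50 among 27 senescence and carbon-starvation genes. They lay between the parents, with SWEET11 at 84.8 to 136 CPM in the hybrids, 67.8 and 91.1 CPM in Col and 180 and 196 CPM in Ler. Without any one of Ler A, ColxLer A, ColxLer B or LerxCol A, SWEET11 missed at 0.0868 to 0.215; SWEET13 missed at 0.0678 to 0.25 in those 4 fits and without Ler B or Col A.

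The anthocyanin, jasmonate and touch lists gave a single fall each, beside 1.9% falling over all genes. The anthocyanin regulator PAP1 fell by 0.61 (adjusted p = 0.0196) as the single call of 24. The median of its list was -0.47 in letter A and 0.08 in letter B, so the list's direction was not shared by the letters. PAP1 missed at 0.0519 to 0.116 without any 1 library but Col B and LerxCol B. Of 31 jasmonate genes ACX1 alone fell (-0.27, adjusted p = 0.0391), and it missed at 0.0572 to 0.177 without any 1 library. RAP2.6, the one call of 25 touch and rapid-stress genes, had at most 0.0684 CPM in the hybrids and at most 0.272 CPM in the parents, and missed at 0.0518 to 0.127 without any one of Ler A, Ler B, ColxLer B, LerxCol A or LerxCol B.

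Salicylic acid genes gave no calls with edgeR, beside 2.69% called over all genes. At that share, lists of this size would hold few calls or none. Of 19 synthesis and signalling genes 0 passed (1 at an unadjusted p below 0.05 and 1 higher with DESeq2), with a median of -0.02. Of 20 responsive genes 0 passed (3 at an unadjusted p below 0.05 and 2 lower with DESeq2), with a median of -0.17. Without Ler B, 1 responsive gene was higher and 1 lower, and without Col B 1 gene of synthesis and signalling was higher. PR1, the standard marker of this response, had 0.382 and 0.714 CPM in ColxLer and 0.657 and 0.951 CPM in LerxCol, against 1.34 and 15.5 CPM in Col and 144 and 0.519 CPM in Ler. The hybrids were below both Col libraries and Ler A and near Ler B. As CPM with no further scaling, Ler B at 0.523 stood far below the other 6 Ler libraries, at 150 in Ler A and 216 to 589 in Ler C to G. The change of -5.49 ± 1.69 did not pass with edgeR (adjusted p = 0.141). ICS1, which makes salicylic acid, had 15.1 to 16.9 CPM in the hybrids and 15.5 to 16.7 CPM in the parents (-0.01, adjusted p = 0.969).

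Genes of photosynthesis and of cell division did not pass with edgeR either, beside 2.69% called over all genes. Few calls or none would be found in these lists too at that share. Of 45 nuclear photosynthesis and chlorophyll genes 0 were called, with 8 at an unadjusted p below 0.05 and 1 lower with DESeq2, and 2 were higher without LerxCol B and 1 lower without Col B. The median was 0.19 in letter A and -0.06 in letter B (0.07 over both). Of 32 cell division and DNA replication genes 0 were called, also with DESeq2, and 9 were lower at an unadjusted p below 0.05; 31 had negative changes and the median was -0.19; in letter A it was -0.34, with Col A the highest library of the list at a summed 696 CPM, and in letter B it was 0.01. Without Col B, the number of division genes lower reached 9.

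**Figure D5:**
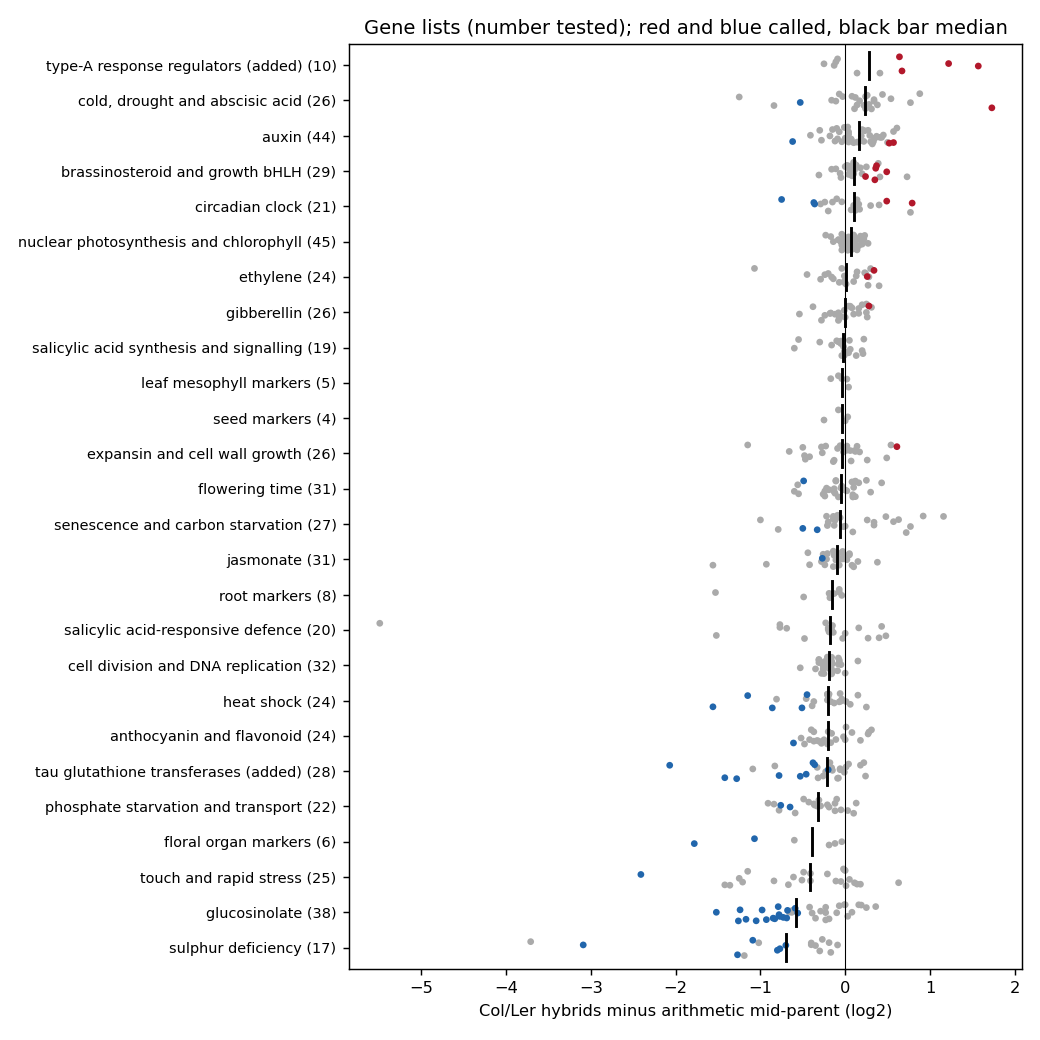
Each row is a gene list with the number of members tested; points are members at their log2 difference between hybrids and the arithmetic mid-parent, red where called higher and blue where called lower, and the black bar is the median. Medians run from 0.28 for type-A response regulators to -0.70 for sulphur-deficiency genes, against -0.01 for all genes.

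A stricter question is whether the hybrids lay outside the range of both parents. This held by test for 155 genes (0.521%), of which 52 were higher than both (0.175%) and 103 lower than both (0.346%). Without regard to a test, all 4 hybrid libraries were above all 4 parent libraries at 340 genes (1.14%) and below them at 363 (1.22%). By distance from the nearer parent, the farthest above were ARR7, ARR6, AT1G64380, AT1G19060 and ACR4, of which ARR7 and AT1G19060 lie near each other. The farthest below were IPMI1, AT3G25790, AT3G56360, FMO GS-OX1 and SOT17. Of those below, 3 belong to aliphatic glucosinolate synthesis. AT3G56360, an uncharacterised protein in RefSeq, had 53.5 and 34.7 CPM in ColxLer and 63.8 and 45.4 CPM in LerxCol, against 118 and 67.7 CPM in Col and 147 and 80.1 CPM in Ler (-1.03, adjusted p = 0.00771). AT3G25790, a MYB-like factor, was at 0.726 to 1.92 CPM in the hybrids and 1.88 to 3.08 CPM in the parents (-1.08, adjusted p = 0.034) and missed at 0.0595 to 0.16 without any one of Ler A, Col B, ColxLer A, ColxLer B or LerxCol B. The count of genes beyond both parents was 74 without Ler A, 102 without Ler B, 70 without Col A, 279 without Col B, 88 without ColxLer A, 80 without ColxLer B and 77 without LerxCol A. It was 3 without the letter block.

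No gene separated the directions of the cross. ColxLer against LerxCol gave 0 calls with edgeR (0%), 2033 genes at an unadjusted p below 0.05 where 5% of the genes is 1489, and 37 with DESeq2. The smallest adjusted p was 0.0852, shared by AT3G24518, GH3.5 and HSFC1. GH3.5, which conjugates auxin and salicylic acid, had 27.3 and 17.5 CPM in ColxLer and 12.2 and 12.1 CPM in LerxCol, a difference of 0.86 ± 0.12. HSFC1, a heat shock factor, had 39.5 and 24.4 CPM in ColxLer and 20.8 and 13.1 CPM in LerxCol, and the long non-coding RNA AT3G24518 averaged 31 ± 10.4 CPM in ColxLer and 16.2 ± 5.34 CPM in LerxCol (SD, n = 2 each). AT3G24518 and HSFC1 (AT3G24520) carry neighbouring locus numbers, and their levels were close in every hybrid library. Whether they are separate signals was not tested, and strand use in counting is not given. AT3G24518, GH3.5 and HSFC1 were each higher in ColxLer in both letters. The count was 3 without Col A or Col B and 1 without ColxLer B or LerxCol B. AT1G64380 and CBF1, both called against the mid-parent, were higher in ColxLer than in LerxCol in both letters as well, by values given above, and were not called for direction.

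The Col/Ler hybrids were last set against the other hybrid families, by a test of the difference between their departures from their own mid-parents. Families share parent libraries, so the effects are not independent. The Col/Ler departure differed from that of the C24/Ler hybrids at 5 genes (0.0168%), 3 higher (0.0101%) and 2 lower (0.00672%). It differed from that of the C24/Col hybrids at 36 (0.121%), 13 higher (0.0437%) and 23 lower (0.0772%). MAF1 stood at the mid-parent in Col/Ler hybrids and above it in C24/Ler hybrids (0.09 and 1.93). Col/Ler hybrids had a mean of 18.4 CPM, with parents at 28.3 CPM in Col and 6.01 CPM in Ler, while C24/Ler hybrids had 15.6 CPM, with parents at 2.16 CPM in C24 and 6.01 CPM in Ler. The floral integrator SOC1 did not pass against the mid-parent in Col/Ler hybrids (0.12, adjusted p = 0.666) at a mean of 87.9 CPM, against 14.6 CPM and a change of -1.86 in C24/Col hybrids. AT4G12735, GSTU24, AT2G41231 and GLYI7 differed the other way, as genes that fell in Col/Ler hybrids and did not pass in C24/Col hybrids. None of them was called against C24/Ler hybrids, where AT4G12735 and GSTU24 fell too, by 1.48 and 1.86 (adjusted p = 0.00152 and 0.00145). Chosen after its values were seen, the side-chain oxygenase FMO GS-OX2 of aliphatic glucosinolates also differed from the C24/Col hybrids. FMO GS-OX2 was at -0.10 in Col/Ler hybrids (adjusted p = 0.434) and fell by 0.96 in C24/Col hybrids, a difference of 0.86 (adjusted p = 0.00019). None of the response regulators or clock genes was called in either test. The first count was 2 without the letter block, 2 without Ler B, 10 without Col A, 1 without ColxLer A, ColxLer B or LerxCol B and 0 without LerxCol A. The second was 8 without the block, 11 without Ler A, 57 without Ler B, 12 without ColxLer A, 11 without ColxLer B and 17 without LerxCol B.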

How the data were processed

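The deposited table holds raw counts per locus, whole numbers with no normalization, per the file headers and values. TAIR10 and FastQC are listed, per the submitters' processing notes. No aligner, counter or strand setting is named in the sources used here. Libraries were made with a TruSeq kit and sequenced on a GAIIx or HiSeq instrument, per the labels' protocols. Samples were grouped by title, and the series' design text calls the pools biological replicates. Of the table's columns, 2 could be tied to a group but not to 1 library, and none of those was used.

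The counts of the 18 libraries lettered A and B of 9 genotypes (72386257 to 86704381 counts each) were fitted with edgeR 4.0.16 (limma 3.58.1, R 4.3.3): filterByExpr by genotype, TMM, robust quasi-likelihood, letter as block, Benjamini-Hochberg adjustment over all 29777 genes tested of 33321 loci. The mid-parent is the arithmetic mean of the fitted Col and Ler levels, entered for each gene as a linearised contrast, with the weight of each parent rounded to steps of 0.05. A gene was called at an adjusted p below 0.05, and beyond both parents when called against each of them in 1 direction. Values given as SE are the size of the change divided by the square root of its F statistic. They follow from the test and were not estimated separately. On simulated counts, 86% of 100 genes changed 1.5-fold and 94% of 100 changed 2-fold were recovered, with 7 false among 187 calls. Those counts were drawn from the fitted model itself, with its spread and letter effect, and the changed genes had a mean of at least 1 CPM. The simulation therefore cannot show whether the model holds for these libraries, and its rates apply only where it does. A count of 0 allows up to 3 counts, 0.0346 to 0.0392 CPM in these 8 libraries, for counting error only.

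Libraries with the same letter deviated together in each of 36 pairs of genotypes (r = 0.29 to 0.76 over 23478 genes), which is the ground for the block. The lowest values were within this family, at 0.29 for Col with LerxCol and 0.38 for Ler with LerxCol. The letter was thus shared least between LerxCol and its parents. What the letters mark is not in the labels. Named genes were the 8 largest rises and falls of at least 1 CPM with all 4 hybrid libraries on 1 side of the mid-parent, up to 2 called members of each list with the smallest adjusted p, the 5 farthest beyond both parents each way, the 5 largest called changes each way in other comparisons, and FLC, MAF1, PR1 and CBF1 to CBF3; other list members are given to describe their list. Of 73 named genes, 12 overlap another annotated gene (ARR6, FKF1, ERS1, EBF2, PAP17, UGT73B4, FLC, CBF3, AT2G41231, GLYI7, AT2G09800 and AT2G14475), and their counts are uncertain where strand was not used. The members, lists and tests were chosen with earlier results of these data known. Names and promoters are from RefSeq, TAIR10.1, in which 32565 loci matched (97.7%); positions were read with GenomicRanges 1.54.1. DESeq2 1.42.0 and the other alternatives were run on the same counts.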

Additional observations from a re-analysis of the deposited data

Results flagged for a closer look

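The departure of the Col/Ler hybrids from their mid-parent was set against that of another hybrid family by edgeR's test of the difference itself, with Benjamini-Hochberg adjustment. It differed from that of the C24/Ler hybrids at 5 genes and from that of the C24/Col hybrids at 36. Listed here are 14 of these, at most the 5 largest each way among genes of at least 1 CPM. Against the C24/Ler hybrids the difference was 1.32 for AT1G52100 (adjusted p = 0.0152), 0.50 for NSP1, a nitrile specifier protein (0.0383), -1.84 for MAF1 (0.0152) and -0.78 for AT1G35280 (0.0463). NSP1, MAF1 and AT1G35280 were at 0.00, 0.09 and -0.01 in the Col/Ler hybrids, so their departures were those of the C24/Ler hybrids.

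Against the C24/Col hybrids the difference was 1.98 for SOC1 (adjusted p = 0.000198), 1.85 for the floral regulator FUL (0.00514), 1.74 for AT1G20390 (3.53e-08), 1.33 for AT5G52390 (0.0394) and 1.03 for AT1G67865 (0.0371). It was -2.22 for AT4G12735 (0.00514), -1.93 for AT4G18422 (0.0238), -1.80 for GSTU24 (0.0371), -1.67 for AT2G41231 (0.00514) and -1.61 for GLYI7, a glyoxalase-family gene (0.0473). AT1G20390 rose by 0.41 in Col/Ler hybrids and fell by 1.32 in C24/Col hybrids. AT4G12735, GSTU24, AT2G41231 and GLYI7 fell by 2.13, 2.07, 2.03 and 1.72 in Col/Ler hybrids and were at 0.10, -0.27, -0.36 and -0.10 in C24/Col hybrids. In C24/Ler hybrids AT4G12735 and GSTU24 fell too, by 1.48 and 1.86. The families share parent libraries, and no explanation was tested.

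SOC1, FUL, AT1G20390, AT4G12735 and AT2G41231 kept their calls without the replicate block and without any 1 library. AT1G52100 missed at 0.0525 to 0.0842 without ColxLer B, LerxCol A or LerxCol B, and MAF1 at 0.0577 to 0.0842 without ColxLer A, LerxCol A or LerxCol B. NSP1 missed at 0.0547 to 0.246 without any 1 library but Ler A, AT1G35280 at 0.0581 to 0.278 without any 1 library but Col A and Col B, and AT5G52390 at 0.0565 to 0.135 without Ler A, Ler B, ColxLer A, ColxLer B or LerxCol B. AT1G67865 missed at 0.0518 to 0.133 and GLYI7 at 0.0632 to 0.165 without any 1 library but Ler B. GSTU24 missed at 0.0583 to 0.16 without any 1 library but Ler B, and AT4G18422 at 0.0654 to 0.165 without Ler A or any 1 hybrid library.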

How the results depend on the processing

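Against the mid-parent, 800 genes were called. Without the replicate block the count was 93, from the 8 libraries alone 251, from mid-parent libraries 378, against the log-scale mean of the parents 1258 (57% higher, against 29.1%) and with DESeq2 1351; leaving out 1 library gave 283 to 1718. Beyond both parents, 155 genes became 3 without the block and 69 from the 8 libraries, and 70 to 279 without 1 library. ColxLer against LerxCol gave 0 to 3 calls without 1 library and 37 with DESeq2. Col against Ler gave 4143 without the block and 3926 to 7186 without 1 library. The difference from the C24/Ler hybrids was called at 2 genes without the block, 83 with DESeq2 and 0 to 10 without 1 library; that from the C24/Col hybrids at 8, 202 and 11 to 57. RLE scaling and no filter on low counts left each count within 1.5 times. Of 47 named genes called against the mid-parent, 15 were called without the block. FLC, not called at 0.08, ranged from -0.12 without Col A to 0.31 without Col B, and was -0.00 without Ler B. The cause of these changes was not tested. Each genotype has 2 pools, which limits the precision.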
